A study of Mus musculus with 4 samples.

Results

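The 42 genes described here encode the proteins that assemble and run the DNA replication fork and that supply it with nucleotides. They were selected by symbol from the 24421 gene rows of the count tables, and all 42 passed the filter on low counts, which kept 13669 genes. RNA was measured in 4 J558 allografts, which are tumours grown from the mouse plasmacytoma line J558 after injection under the skin of the flank of female BALB/c mice. The control group (Vehicle-1 and Vehicle-2) received 0.5% methylcellulose, and the treated group (TAK-931-1 and TAK-931-2) received TAK-931, an inhibitor of the kinase CDC7, by mouth at 60 mg/kg once daily. Tumours of both groups were taken on day 6, with 1 tumour from 1 mouse per library, and the mice used were 4 weeks of age. Each library is of a whole tumour, in which host immune and stromal cells sit among the J558 cells. Levels are given in CPM, the read count of a gene scaled to equal library size, with the value of Vehicle-1 before that of Vehicle-2. The comparison addresses how inhibition of CDC7 in a tumour bears on the transcripts of the machinery that marks origins and copies DNA.

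Replication starts at origins that the origin recognition complex marks and that CDC6 and CDT1 load with the MCM helicase. CDC7, with its partner DBF4, phosphorylates the MCM proteins, after which GINS joins and the helicase becomes active. Polymerase alpha-primase then lays down primers, polymerases delta and epsilon extend them on the sliding clamp PCNA, and ribonucleotide reductase with thymidylate synthase provides the deoxynucleotides. Many of these genes are known to be transcribed at the transition from G1 to S phase under E2F factors, so that their transcripts are a common readout of how many cells of a tissue are cycling.

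In both TAK-931-treated tumours most of these transcripts were lower than in the vehicle-treated tumours, to unequal degrees. Both TAK-931 libraries lay below both vehicle libraries for 27 of the 42 genes (64.3%), against 32.7% of all genes tested. Both lay above for 3 genes (7.14%), namely Orc1, Rpa2 and Tk1, against 30.0% of all genes tested. The fitted log2 fold change was negative for 37 genes and positive for 5, with a median of -0.44 beside 0.02 over all genes tested. With an adjusted p under 0.05 as the limit, edgeR called 0 of the 42 genes and 0.0% of all genes tested. At an unadjusted p under 0.05, 11 of the 42 (26.2%) were lower and 0 were higher, beside 6.55% and 11.6% of all genes tested. The 11 were Orc5, Gins1, Gins4, Pola2, Prim1, Pole2, Pcna, Rfc5, Rpa3, Tyms and Chaf1b, each with an adjusted p of 0.275 in edgeR. DESeq2 called 1 of the 42 at an adjusted p under 0.05, Orc5, as lower and 0 as higher, beside 1.1% and 9.27% of all genes tested. With replicate number as a block, edgeR called 0 of the 42 and 1.05% of all genes tested. With 2 libraries a group, an exact permutation test of a single gene cannot go below a p of 0.3333.

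**Figure D1:**
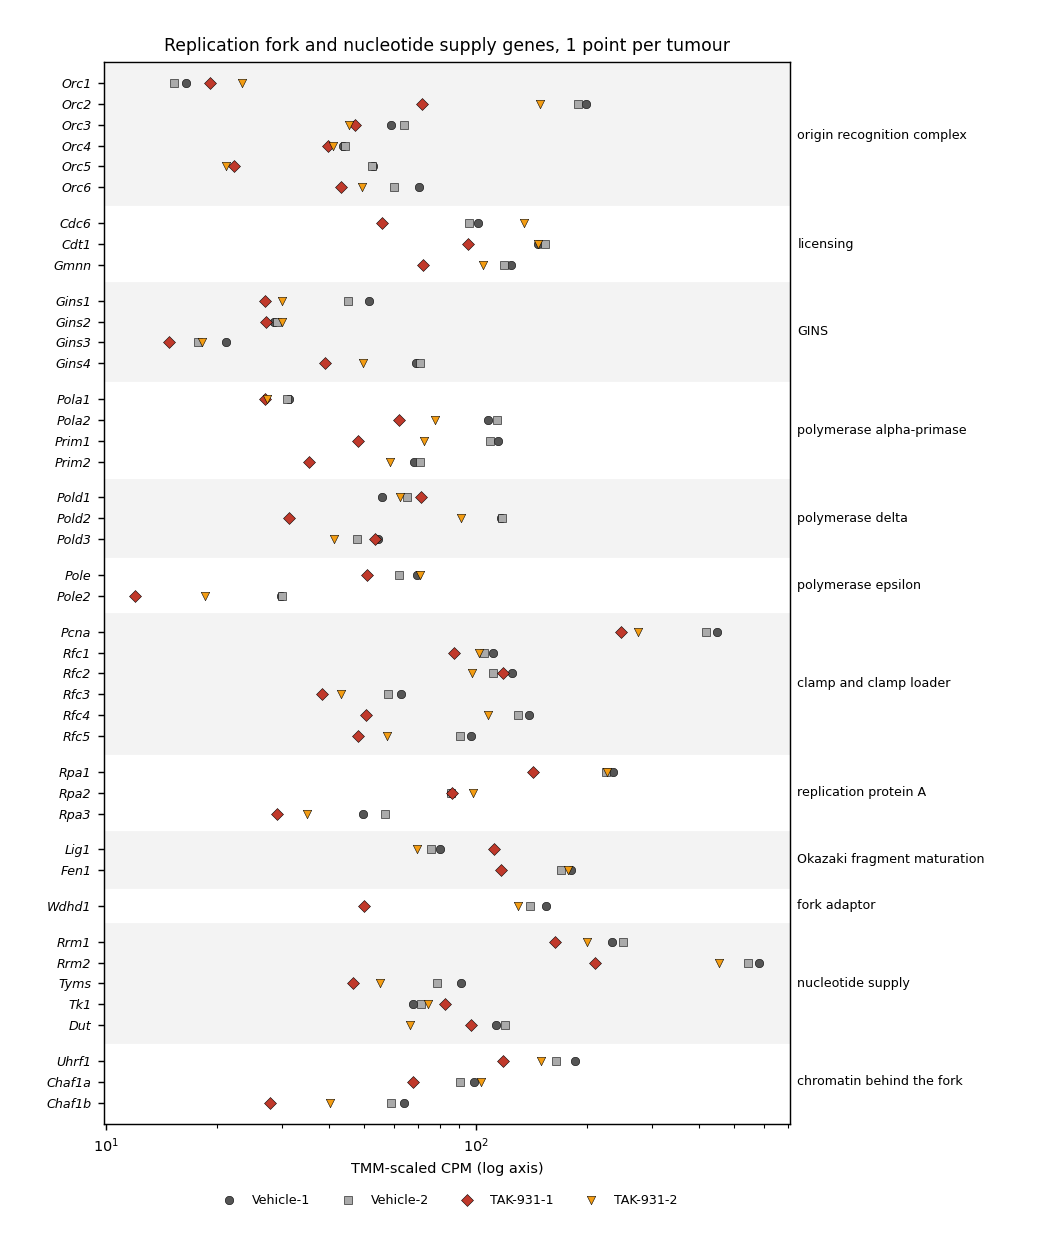
Level of the 42 genes in TMM-scaled CPM (log axis), ordered by role, with 1 point for each of the 4 tumours. The vehicle points lie close together, Orc5 has both TAK-931 points far to their left, and for Pold2, Wdhd1, Rrm2 and Orc2 the TAK-931-1 point lies far from all the others.

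The 2 treated tumours were not alike, and the library TAK-931-1 stood apart from the other 3. Over all genes tested, the log2 CPM correlated at 0.986 between the vehicle libraries, at 0.878 between the TAK-931 libraries and at 0.961 and 0.953 between TAK-931-2 and the vehicle libraries, and at 0.816 and 0.803 between TAK-931-1 and these; these are correlations across genes. Total counts were between 16487902 and 19589339 per library. In TAK-931-1, 10 of 10 macrophage markers, 10 of 10 T cell markers and 10 of 10 fibroblast markers had their highest level. The summed level of the macrophage markers was 536 to 641 CPM under vehicle and 9373 (TAK-931-1) and 1677 CPM (TAK-931-2) under the inhibitor. For the T cell markers the sums were 60.0 to 70.5, 1369 and 161 CPM, and for the fibroblast markers 1968 to 2259, 15810 and 5349 CPM. The NK cell sum, at 25.2 to 49.9, 454 and 108 CPM, was higher in both treated tumours too. The endothelial sum (245 to 271, 864 and 260 CPM) and the skeletal muscle sum (87.2 to 95.3, 617 and 12.1 CPM) were higher in TAK-931-1 only, which need not hold for each marker. The keratinocyte sum (53.8 to 83.9, 36.6 and 45.6 CPM) was lowest in TAK-931-1. So was the mature B cell sum (202 to 245, 133 and 239 CPM), of which Cd79b made up most, whereas Cd22 was higher in both treated tumours, at 1.42 and 1.32 CPM under vehicle and 41.7 (TAK-931-1) and 11.4 CPM (TAK-931-2) under the inhibitor, and Pax5 had no count in any library. The 12 plasma cell and J558 markers, among them Sdc1, Xbp1 and the tumour antigen gene Trap1a, summed to 15410 to 15660 CPM under vehicle and to 6236 (TAK-931-1) and 18150 CPM (TAK-931-2) under the inhibitor. All 12 were detected in all 4 libraries, and their sum was lowest in TAK-931-1, although Slamf7 was higher there than in the vehicle libraries (144 CPM beside 117.8 to 123.5 CPM). Of the 12, 5 were lower and 1 was higher in both treated tumours, beside 32.7% and 30.0% of all genes tested. The higher sum in TAK-931-2 therefore did not hold for each marker. In a whole tumour, fewer cells of a type and less RNA per cell cannot be told apart, and the part of these markers in the values of the replication genes was not tested.

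Summed over the 42 genes, both treated tumours lay below both vehicle tumours. The summed level was 4841 and 4649 CPM under vehicle and 2905 (TAK-931-1) and 3927 CPM (TAK-931-2) under the inhibitor. Over the 42 genes, the log2 ratio to the mean of the vehicle libraries had a median of -0.66 (TAK-931-1) and of -0.28 (TAK-931-2). TAK-931-1 lay below both vehicle libraries for 35 genes, against 47.4% of all genes tested, and TAK-931-2 for 30 genes, against 44.4%. The level was lower in TAK-931-1 than in TAK-931-2 for 34 of the 42 genes. No such count was taken over all genes tested, for which these libraries differed by a median of 0.66 on the log2 scale. Set against the plasma cell and J558 sum, the treated tumours parted in opposite directions. The 42 genes together came to 31.4% and 29.7% of that sum under vehicle, but to 46.6% of it for TAK-931-1 and 21.6% for TAK-931-2. With the libraries scaled to that list, the median log2 fold change of the 42 genes became 0.26, while the median of all genes moved by 0.71 on the log2 scale, and 5 genes (11.9%) lay below and 2 above the vehicle libraries in both treated tumours, beside 7.93% and 28.8% of all genes tested under that scaling.

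The calls also depended on which tumour entered the fit. Without TAK-931-1, the median log2 fold change was -0.28, and edgeR called 20 of the 42 genes as lower and 1, Cdc6, as higher at an adjusted p under 0.05, beside 16.1% and 12.6% of all genes tested. Without TAK-931-2, the median was -0.68, and 31 genes were called as lower and 1, Lig1, as higher, beside 29.8% and 28.2% of all genes tested. In each of these fits the lone treated library was taken to vary like the vehicle pair, whose members differed by at most 0.25 on the log2 scale for any of the 42 genes. The TAK-931 pair differed by a median of 0.33 and by up to 1.55 for Pold2. Without Vehicle-1, and likewise without Vehicle-2, 0 of the 42 genes had an unadjusted p under 0.05, beside 6.86% and 6.98% of all genes tested. At the same limit, edgeR counted 24 genes without TAK-931-1 and 32 without TAK-931-2, beside 40.8% and 63.1%, and 5 genes (11.9%) with the replicate block, beside 16.2%.

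**Figure D2:**
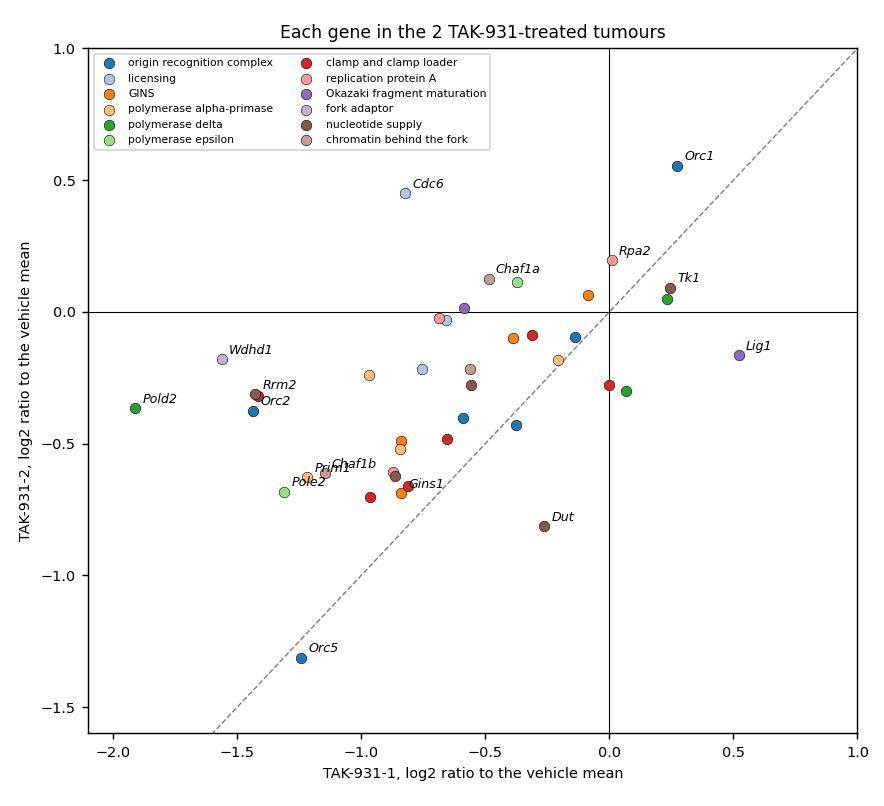
Log2 ratio of TAK-931-1 (horizontal) and of TAK-931-2 (vertical) to the mean of the vehicle libraries for each of the 42 genes, coloured by role, with the line of equal ratios dashed. Most points lie left of the line, at lower levels in TAK-931-1, Orc5 lies beside it at -1.24 and -1.31, and Cdc6 is at -0.82 and 0.45, on opposite sides of 0.

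The promoters of these genes were searched for the E2F motif, since this motif is what many of them are known to share. Of the 42 genes, 35 had a promoter sequence in the RefSeq table (GRCm38.p6), which covers 250 bases before and 50 bases after a start site. The letters TTTCCCGC, TTTCGCGC, TTTGCCGC or TTTGGCGC stood on either strand in 12 of the 35 genes (34.3%), against 2.6% of all 27025 genes in that table. CCAAT, which NF-Y is known to bind, was in 51.4% of the 35 and in 41.1% of all genes. The 12 matching genes are printed from the lowest fold change to the highest, 5′ to 3′ on the strand of the gene, with the E2F letters in capitals and up to 11 bases on each side. Matches on the opposite strand appear as the reverse complement.
Pole2: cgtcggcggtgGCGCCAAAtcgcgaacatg
Rfc3: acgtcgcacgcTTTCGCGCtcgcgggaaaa
Orc3: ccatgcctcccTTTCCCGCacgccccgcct
Uhrf1: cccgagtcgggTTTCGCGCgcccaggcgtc
Cdt1: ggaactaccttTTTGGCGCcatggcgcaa
Gins3: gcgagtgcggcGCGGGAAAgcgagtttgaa
Pola1: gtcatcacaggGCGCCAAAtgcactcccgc
Pold3: gagcgaagctgTTTCCCGCcggcgggagct
Cdc6: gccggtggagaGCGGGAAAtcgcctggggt
Pold1: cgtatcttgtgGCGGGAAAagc
Lig1: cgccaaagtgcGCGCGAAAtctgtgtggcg
Orc1: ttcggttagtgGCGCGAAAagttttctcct
In build GRCm38.p6 these stretches lie at chr12:69228162-69228191 for Pole2, chr5:151651200-151651229 for Rfc3, chr4:34614965-34614994 for Orc3, chr17:56304117-56304146 for Uhrf1, chr8:122568036-122568064 for Cdt1, chr8:95633507-95633536 for Gins3, chrX:93632275-93632304 for Pola1, chr7:100121467-100121496 for Pold3, chr11:98908002-98908031 for Cdc6, chr7:44548766-44548787 for Pold1, chr7:13278841-13278870 for Lig1, chr4:108579416-108579445 for Orc1. Pole2, Rfc3, Orc3, Pola1, Pold3 and Pold1 are on the minus strand and the others on the plus strand. Rfc3 had a further match that begins at its start site. Of the 13 matches, 7 began before the start site, 1 at it and 5 after it. The 12 genes with a match had a median log2 fold change of -0.22, from -0.96 for Pole2 to 0.42 for Orc1, and the 23 without one a median of -0.71, from -1.28 to 0.17. A match of letters is a description of the sequence and no test was made of this difference.

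Of the genes described in full by the naming rule, Pole2 and Uhrf1 held the motif, and in Uhrf1 it lay well before the second of its 2 listed start sites. The 250 bases before that start site (chr17:56304063-56304312, plus strand) are printed with the motif in capitals.
Uhrf1: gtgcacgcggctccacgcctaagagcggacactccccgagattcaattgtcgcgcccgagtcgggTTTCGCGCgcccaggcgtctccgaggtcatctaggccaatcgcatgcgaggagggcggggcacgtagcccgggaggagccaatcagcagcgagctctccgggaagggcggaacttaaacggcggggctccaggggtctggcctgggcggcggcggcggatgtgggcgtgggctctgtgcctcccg
Orc5, which had the largest fitted log2 fold change of the 42 genes in size, held none of the E2F letters in the window. Its upstream 250 bases (chr5:22550339-22550588, minus strand) are printed because the results turn on this gene, a choice made after its values were seen.
Orc5: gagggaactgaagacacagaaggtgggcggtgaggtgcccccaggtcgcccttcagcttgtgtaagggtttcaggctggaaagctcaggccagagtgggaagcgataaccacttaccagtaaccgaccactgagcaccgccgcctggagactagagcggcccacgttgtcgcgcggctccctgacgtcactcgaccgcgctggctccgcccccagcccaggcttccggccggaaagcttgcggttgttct

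The origin recognition complex, the 6-subunit ATPase that binds origins, had 5 of 6 genes lower and 1 higher in both treated tumours. These counts, and those of the other roles, stand beside 32.7% of all genes tested lower and 30.0% higher in both. Orc5, an ATP-binding subunit, is at chr5:22486489-22550331 on the minus strand (mm10). It was at 52.8 and 52.5 CPM under vehicle and 22.2 (TAK-931-1) and 21.2 CPM (TAK-931-2) under the inhibitor. The vehicle libraries were nearly equal, the treated libraries were nearly equal, and the groups did not overlap. Its fitted log2 fold change was -1.28 ± 0.21 (SE), a 0.413-fold level, with an adjusted p of 0.275 in edgeR and of 0.00834 in DESeq2. By edgeR's p it ranked 36 of the 13669 genes tested. Without TAK-931-1 the log2 fold change was -1.32, so that the value did not rest on the library that stood apart. Orc5 was also the only one of the 42 genes under 50% of the vehicle mean in TAK-931-2, at 40.3%, beside 42.3% in TAK-931-1.

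The Orc5 values depended on what they were set against. As a share of the summed level of the 42 genes, Orc5 was 1.09% and 1.13% under vehicle, 0.765% for TAK-931-1 and 0.539% for TAK-931-2. As a share of the plasma cell and J558 sum it was 0.342%, 0.335%, 0.357% and 0.117%. By the first measure both treated tumours were lower, and by the second only TAK-931-2 was. Its exons overlap the pseudogene Gm15421 on the same strand over 4.4% of their length.

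The other origin recognition genes had smaller fitted changes. Orc2, a core subunit, was at 199 and 189 CPM under vehicle and 71.6 (TAK-931-1) and 149 CPM (TAK-931-2) under the inhibitor. Both treated libraries were lower, TAK-931-1 by far the more. The log2 fold change of Orc2 was -0.81 ± 0.41 (SE), adjusted p = 0.328 in edgeR, and it was -0.38 without TAK-931-1. Orc2 shares 24.0% of its exon length with Nif3l1 on the opposite strand, and without a stated strand setting reads of the overlap cannot be assigned. Orc3, Orc4 and Orc6 were lower in both treated tumours as well, with log2 fold changes from -0.49 to -0.12, and none had an unadjusted p under 0.05. Orc1, the subunit whose level cycles with the cell, was the exception, at 16.4 and 15.3 CPM under vehicle and 19.2 (TAK-931-1) and 23.3 CPM (TAK-931-2) under the inhibitor (log2 fold change 0.42 ± 0.30 SE, adjusted p = 0.428). It is described because it was 1 of 3 genes that were higher in both treated tumours.

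The 3 licensing genes lay below the vehicle libraries in TAK-931-1 and had no common direction in TAK-931-2. Gmnn, which encodes geminin, the inhibitor of CDT1, was at 124 and 119 CPM under vehicle and 72.1 (TAK-931-1) and 105 CPM (TAK-931-2) under the inhibitor. It was lower in both treated tumours, with a log2 fold change of -0.46 ± 0.27 (SE), adjusted p = 0.363, and of -0.22 without TAK-931-1. Cdt1, the loading factor that geminin binds, was below both vehicle libraries in TAK-931-1 alone, at 95.2 CPM, and at 147 CPM in both Vehicle-1 and TAK-931-2. Cdc6, the ATPase that works with CDT1 at the origin, was at 101 and 95.8 CPM under vehicle and 55.6 (TAK-931-1) and 135 CPM (TAK-931-2) under the inhibitor. The treated tumours lay on opposite sides of the vehicle pair, and the log2 fold change of -0.05 ± 0.47 (SE) averages them. Cdc6 and Cdt1 are named for this pattern, after their values were seen.

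GINS, the 4-subunit part of the active helicase, had 2 genes lower in both treated tumours and 2 with no order. Gins1 was at 51.4 and 45.0 CPM under vehicle and 27.0 (TAK-931-1) and 29.9 CPM (TAK-931-2) under the inhibitor. The treated libraries were close to each other and below the vehicle pair, with a log2 fold change of -0.76 ± 0.23 (SE). Gins4, which had the highest level per exon length of the 4, was at 69.0 and 70.8 CPM under vehicle and 39.1 (TAK-931-1) and 49.7 CPM (TAK-931-2) under the inhibitor (log2 fold change -0.65 ± 0.23 SE). Gins2 and Gins3 lay within or near the vehicle pair in TAK-931-2, and the log2 fold change of Gins2 was -0.01 ± 0.24 (SE).

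Polymerase alpha-primase, which starts every new strand with a short primer, had 4 of 4 genes lower in both treated tumours, beside 32.7% of all genes tested. Prim1, the catalytic primase subunit, was at 115 and 109 CPM under vehicle and 48.2 (TAK-931-1) and 72.5 CPM (TAK-931-2) under the inhibitor. Both treated libraries were clearly lower and TAK-931-1 the lowest, with a log2 fold change of -0.89 ± 0.28 (SE), and of -0.63 without TAK-931-1. Of the other subunits, Pola2 had an unadjusted p under 0.05 (log2 fold change -0.67 ± 0.23 SE), Prim2 was at -0.56 ± 0.32 (SE), or -0.24 without TAK-931-1, and the catalytic Pola1 was at -0.19 ± 0.23 (SE).

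Among the 5 genes of the polymerases that extend the primers, Pold2 and Pole2 had the lowest fitted values. Pold2, the small regulatory subunit of polymerase delta, was at 117 and 118 CPM under vehicle and 31.2 (TAK-931-1) and 91.2 CPM (TAK-931-2) under the inhibitor. It had the lowest ratio of the 42 genes in TAK-931-1, at 26.6% of the vehicle mean, beside 77.6% in TAK-931-2. The log2 fold change was -0.94 ± 0.55 (SE), adjusted p = 0.366, and -0.37 without TAK-931-1. The exons of Pold2 overlap those of the stromal gene Aebp1, on the opposite strand, over 4.3% of their length. The catalytic gene Pold1 was at 0.14 ± 0.22 (SE) and Pold3 at -0.11 ± 0.24 (SE), or at 0.04 and -0.30 without TAK-931-1. In polymerase epsilon, Pole2, the second subunit, was at 29.7 and 29.9 CPM under vehicle and 12.01 (TAK-931-1) and 18.6 CPM (TAK-931-2) under the inhibitor. It was lower in both treated tumours (log2 fold change -0.96 ± 0.33 SE), whereas the catalytic Pole was at -0.11 ± 0.26 (SE). Pole2 shares 14.5% of its exon length with the model Gm49384 on the same strand. No test was made of the differences between subunits.

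**Figure D3:**
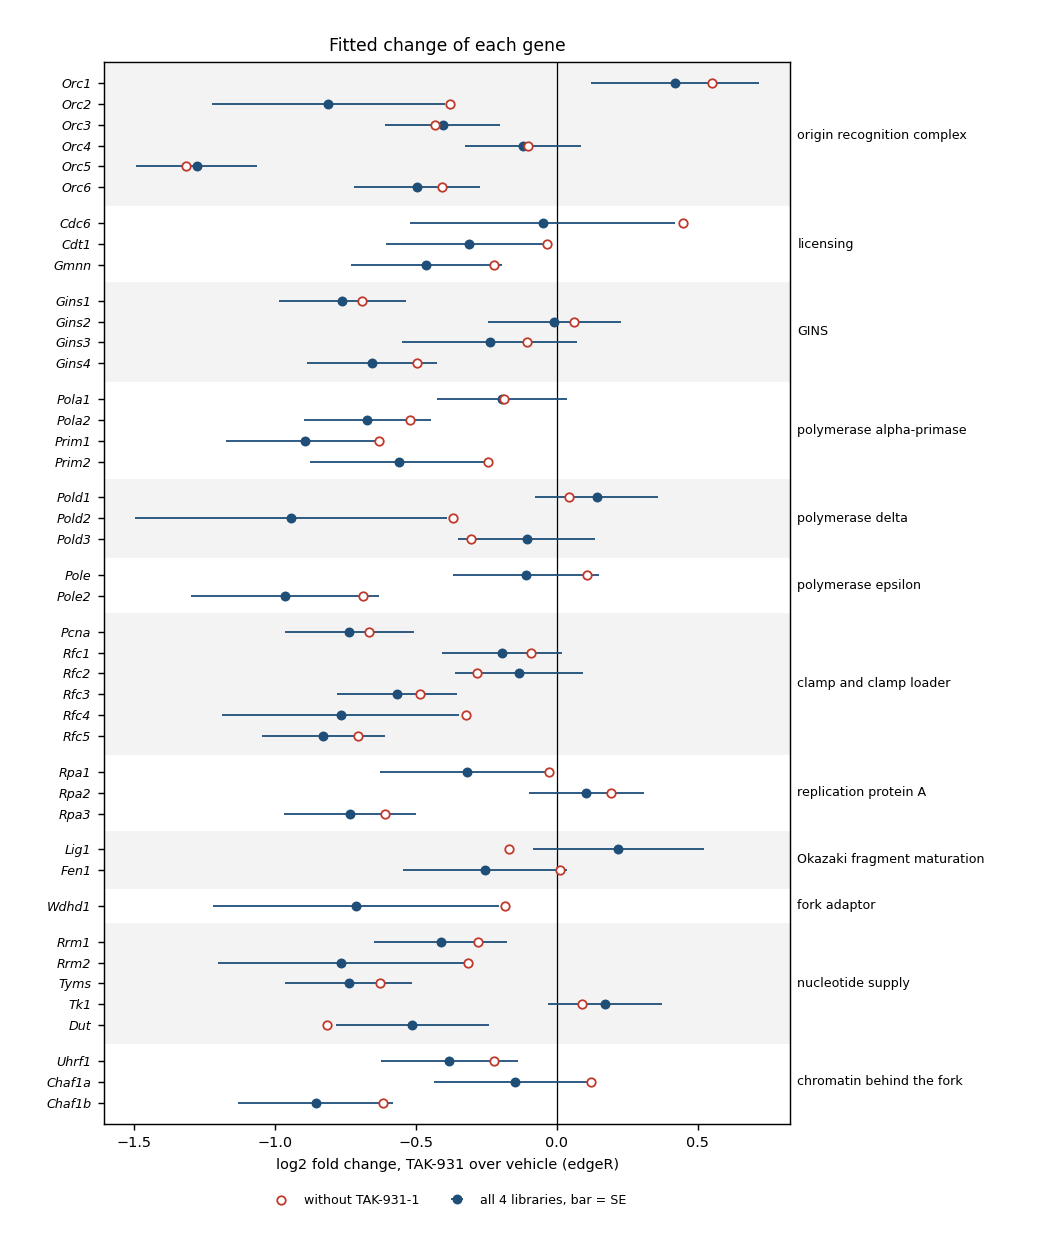
Fitted log2 fold change of each of the 42 genes (filled points, bars are 1 SE) and the same fit without TAK-931-1 (open points), ordered by role. The median goes from -0.44 (filled) to -0.28 (open), Orc5 is at -1.28 and -1.32, and Cdc6, Gins2, Pole, Lig1, Fen1 and Chaf1a change sign.

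Pcna, the sliding clamp that holds the polymerases on DNA, had the highest level per exon length of the 42 genes. It was at 448 and 420 CPM under vehicle and 247 (TAK-931-1) and 274 CPM (TAK-931-2) under the inhibitor. The treated tumours lay close together and below the vehicle pair, with a log2 fold change of -0.73 ± 0.23 (SE), and of -0.66 without TAK-931-1. The annotation lists the pseudogenes Pcna-ps1 and Pcna-ps2, which could share reads with it. The clamp loader RFC places PCNA on primed DNA, and its 5 genes ranged widely. Rfc5 was at 97.4 and 90.4 CPM under vehicle and 48.1 (TAK-931-1) and 57.7 CPM (TAK-931-2) under the inhibitor. It was lower in both treated tumours (log2 fold change -0.83 ± 0.22 SE), with the lowest p of the 42 after that of Orc5. Rfc3 and Rfc4 were lower in both as well, with log2 fold changes of -0.57 ± 0.21 and -0.77 ± 0.42 (SE). The value of Rfc4 was -0.32 without TAK-931-1, and 13.2% of its exon length overlaps Eif4a2 on the opposite strand. Rfc1, the large subunit, was at -0.19 ± 0.21 (SE), and Rfc2 at -0.13 ± 0.23 (SE), or at -0.09 and -0.28 without TAK-931-1.

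Replication protein A coats single-stranded DNA at the fork, and its 3 genes parted. Rpa3, the smallest subunit, was at 49.5 and 56.9 CPM under vehicle and 29.0 (TAK-931-1) and 34.9 CPM (TAK-931-2) under the inhibitor. It was lower in both treated tumours (log2 fold change -0.73 ± 0.23 SE). Rpa1, which carries most of the DNA binding, was below the vehicle pair in TAK-931-1 alone, at 143 CPM beside 226 CPM in TAK-931-2. Rpa2, the subunit phosphorylated under replication stress, was at 85.8 and 85.7 CPM under vehicle and 86.2 (TAK-931-1) and 98.2 CPM (TAK-931-2) under the inhibitor, a log2 fold change of 0.11 ± 0.20 (SE).

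The genes that join the pieces of the lagging strand showed no common direction. Fen1, the flap endonuclease, was at 181 and 170 CPM under vehicle and 117 (TAK-931-1) and 178 CPM (TAK-931-2) under the inhibitor. TAK-931-2 lay between the vehicle libraries, and the log2 fold change was -0.25 ± 0.29 (SE). The antisense model Gm10143 covers 85.9% of the Fen1 exons, so that the Fen1 count may hold reads of both. Lig1, the ligase, went the other way in TAK-931-1, at 112 CPM beside 69.5 CPM in TAK-931-2 and 75.8 to 80.2 CPM in the vehicle libraries. Wdhd1, an adaptor that ties polymerase alpha to the helicase, was at 155 and 140 CPM under vehicle and 49.99 (TAK-931-1) and 130 CPM (TAK-931-2) under the inhibitor. It was far below the others in TAK-931-1 and just below the vehicle pair in TAK-931-2 (log2 fold change -0.71 ± 0.51 SE, adjusted p = 0.432, and -0.18 without TAK-931-1).

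Of the 5 nucleotide supply genes, 4 were lower and 1 was higher in both treated tumours, beside 32.7% and 30.0% of all genes tested. Rrm2, the small subunit that limits ribonucleotide reductase in S phase, was at 583 and 545 CPM under vehicle and 210 (TAK-931-1) and 455 CPM (TAK-931-2) under the inhibitor. It was the second highest of the 42 genes per exon length, and most of its difference came from TAK-931-1 (log2 fold change -0.76 ± 0.44 SE, adjusted p = 0.359, and -0.31 without TAK-931-1). Rrm1, the large subunit, was at -0.41 ± 0.24 (SE). Tyms, which makes thymidylate, was at 91.3 and 78.4 CPM under vehicle and 46.7 (TAK-931-1) and 55.1 CPM (TAK-931-2) under the inhibitor (log2 fold change -0.74 ± 0.22 SE), and the pseudogene Tyms-ps could share its reads. Dut, which removes dUTP, was lower in TAK-931-2 than in TAK-931-1, at 66.3 and 97.1 CPM beside 113 and 120 CPM in the vehicle libraries. Tk1, the salvage kinase for thymidine, was higher in both, at 67.8 and 71.3 CPM under vehicle and 82.4 (TAK-931-1) and 74.1 CPM (TAK-931-2) under the inhibitor, a log2 fold change of 0.17 ± 0.20 (SE), or of 0.09 without TAK-931-1. Tyms, Dut and Tk1 are given per library by choice after their values were seen.

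The genes that restore chromatin and DNA methylation behind the fork had 2 of 3 lower in both treated tumours. Uhrf1, which brings the maintenance methyltransferase to new DNA, was at 185 and 164 CPM under vehicle and 118 (TAK-931-1) and 150 CPM (TAK-931-2) under the inhibitor (log2 fold change -0.38 ± 0.24 SE, adjusted p = 0.392, and -0.22 without TAK-931-1). Chaf1b, a subunit of the histone chaperone CAF-1, was at 64.0 and 59.0 CPM under vehicle and 27.8 (TAK-931-1) and 40.3 CPM (TAK-931-2) under the inhibitor. Both treated libraries were well below the vehicle pair (log2 fold change -0.85 ± 0.27 SE). Its partner Chaf1a was at -0.15 ± 0.29 (SE), below the vehicle pair in TAK-931-1 and above it in TAK-931-2.

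Per exon length, the order of the most abundant transcripts was kept at the top. The mean level in the vehicle group was 345 ± 15.97 CPM per kb for Pcna, 259 ± 12.4 for Rrm2 and 125 ± 3.45 for Gmnn (SD, n = 2 each), and the same 3 genes in the same order led in the TAK-931 group, at 207 ± 15.2, 152 ± 79.4 and 90.5 ± 23.6 CPM per kb. In the TAK-931 group Pcna and Rrm2 did not differ beyond the spread of Rrm2. Likewise Gmnn and the next gene there, Rfc2 at 71.0 ± 9.66 CPM per kb, did not differ beyond the spread of Gmnn. The lowest levels in the vehicle group were those of Orc1, at 5.26 ± 0.268 CPM per kb, and of Pola1, at 5.80 ± 0.0504. Within the origin recognition complex the vehicle means ran from 5.26 CPM per kb for Orc1 to 54.4 for Orc2, so the transcripts of a complex with equal subunits were themselves far from equal. In the TAK-931 group Orc5 was at 10.5 ± 0.361 CPM per kb, beside 25.6 ± 0.112 in the vehicle group.

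**Figure D4:**
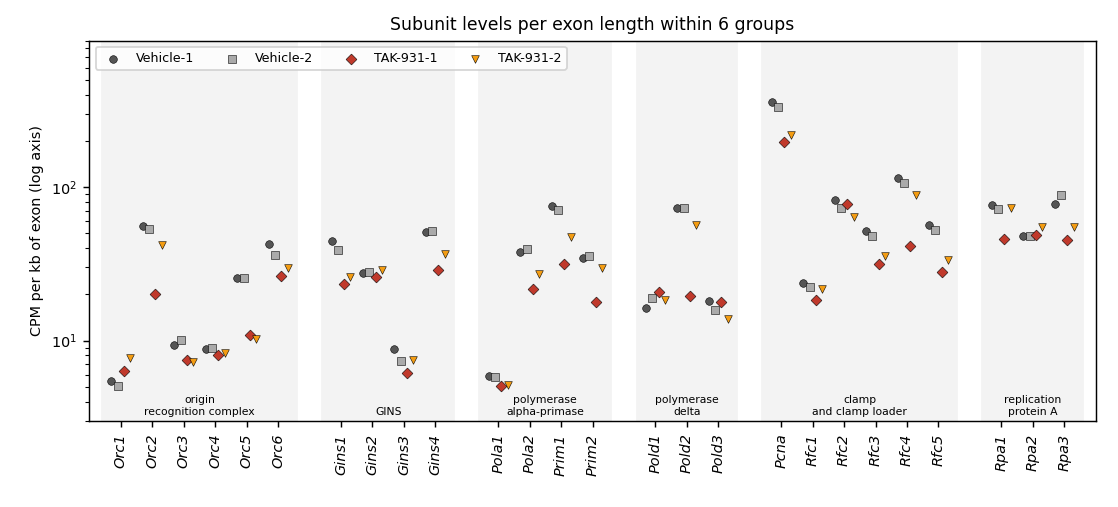
CPM per kb of summed exon length (log axis) of the subunit genes of 6 groups, with 1 point per tumour. Subunits of one complex differ widely in level, and Orc5 is the subunit whose 2 TAK-931 points lie together and furthest below the vehicle points.

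The genes of the MCM helicase and the CDC7 kinase and those of the rest of the fork machinery were lower in sum as well. Of 8 MCM and CDC7 kinase genes, 7 were lower in both treated tumours, beside 32.7% of all genes tested, with a median log2 fold change of -0.40, or -0.18 without TAK-931-1, and 0 had an unadjusted p under 0.05. The gene of the drug's target, Cdc7, was at 23.0 and 21.5 CPM under vehicle and 21.3 (TAK-931-1) and 21.2 CPM (TAK-931-2) under the inhibitor. The summed level of the 42 genes was 2.602 times that of the MCM and CDC7 kinase genes in each vehicle library, 2.54 times in TAK-931-1 and 2.57 times in TAK-931-2. Against the summed level of the other fork and origin firing genes described next, it was 0.980 and 1.001 times under vehicle, 1.048 times for TAK-931-1 and 0.940 times for TAK-931-2. Of 34 other fork and origin firing genes, 22 were lower and 0 higher in both, beside 32.7% and 30.0% of all genes tested, with a median of -0.46, or -0.19 without TAK-931-1. There, 4 were lower at an unadjusted p under 0.05, beside 6.55% of all genes tested: the histone chaperone Asf1a (-0.96 ± 0.22 SE), the polymerase epsilon subunit Pole4 (-0.88 ± 0.21), the histone chaperone Nasp (-0.92 ± 0.33, or -0.61 without TAK-931-1) and the fork protection gene Tipin (-0.79 ± 0.28).

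Among 34 other genes of nucleotide synthesis the median lay further from 0. Of these, 26 were lower and 1 higher in both treated tumours, beside 32.7% and 30.0% of all genes tested, with a median log2 fold change of -0.71, or -0.41 without TAK-931-1, and 5 were lower at an unadjusted p under 0.05, beside 6.55% of all genes tested. These were Shmt1 of the folate cycle (-1.13 ± 0.34 SE), the purine salvage gene Aprt (-0.65 ± 0.21), the nucleoside diphosphate kinase gene Nme1 (-0.90 ± 0.31), the deaminase gene Dctd (-1.13 ± 0.39) and Impdh2 of guanine nucleotide synthesis (-0.69 ± 0.25). Their summed level was 7531 and 7518 CPM under vehicle and 3344 (TAK-931-1) and 5891 CPM (TAK-931-2) under the inhibitor.

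**Figure D5:**
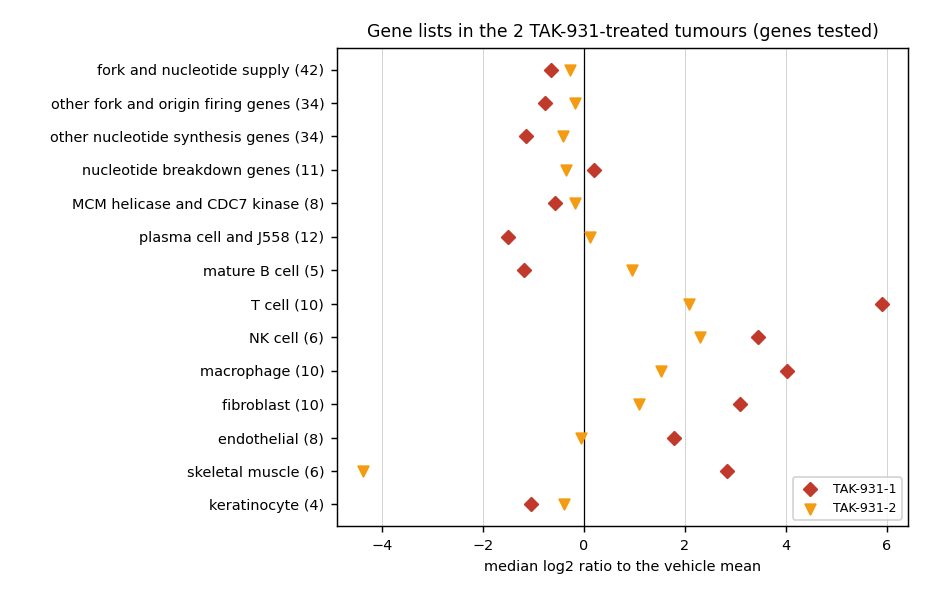
Median log2 ratio of each TAK-931 library to the mean of the vehicle libraries for the 42 genes and for other gene lists, with the number of genes tested in brackets. The replication and nucleotide synthesis lists are below 0 in both tumours, the plasma cell list is below 0 in TAK-931-1 only (-1.50 beside 0.12), and the T cell, NK cell, macrophage and fibroblast lists are above 0 in both.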

How the data were processed

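Bulk RNA-seq of 4 J558 allografts was analysed, 2 vehicle-treated and 2 TAK-931-treated, grouped by their titles. The authors deposited 1 table of raw read counts per gene for each library. The submitters' processing notes name STAR 2.6.1c, featureCounts and mm10, and the column headers name uniquely placed reads. The strand setting was not given in the sources used here. The authors also deposited, in another column, the total exon length per gene in bases. Of the counts from 1 to 20, 17.9% to 23.9% per library were odd, so both mates of a pair appear to be counted singly and counting error is larger than the counts imply. A count of 0 allows up to 3 counts, between 0.158 and 0.180 CPM. The 42 genes had between 228 and 9838 counts in each library. In edgeR 4.0.16 (R 4.3.3), low genes were removed by filterByExpr at a minimum count of 10, libraries were scaled by TMM, and treatment was tested alone, two-sided, by the robust quasi-likelihood method with Benjamini-Hochberg adjustment over 13669 genes. The SE of a log2 fold change was its size divided by the square root of F. CPM are counts scaled by TMM. DESeq2 1.42.0, limma-voom (limma 3.58.1), other scalings and filters, halved counts, a fit without robust estimation, the replicate block and each library left out were alternatives. The test was checked on simulated counts with equal spread in both groups, which differs from these tumours. The members, lists and rules were chosen with earlier results of these data known. In each of 12 roles, the gene with the highest level per kb and that with the largest fold change were given in full, 16 genes in all. In the wider lists, genes at an unadjusted p under 0.05 were named. Overlaps came from GENCODE vM21 and the gene models in the tables. P-values rest on the spread between the 2 tumours of each group, moderated across all genes tested. With a library left out, only the pair of the other group gives that spread.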

Additional observations from a re-analysis of the deposited data

How the results depend on the processing

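The median log2 fold change of the 42 genes was between -0.46 and -0.37 under the other size factors, filters, halved counts, the fit without robust estimation, the replicate block, DESeq2 and limma-voom. Scaled to the plasma cell and J558 list it was 0.26 and the genes lower in both treated tumours numbered 5, not 27, beside 7.93% of all genes tested under that scaling and 32.7% without it; that scaling moved the median of all genes by 0.71. With 1 library left out the median ranged from -0.68 to -0.28. Both TAK-931 libraries lay below the remaining vehicle library for 28 genes without Vehicle-1 and for 32 without Vehicle-2. They lay above it for 3 and 4 genes. No share of all genes tested was taken for these counts, and fewer libraries meet such an order more easily. TAK-931-1 alone lay below both vehicle libraries for 35 genes, beside 47.4% of all genes tested, and TAK-931-2 alone for 30, beside 44.4%. The same libraries lay above both for 5 and 7 genes, for which no such share was taken. Genes at an adjusted p under 0.05 numbered 0 in edgeR, 1 in DESeq2 and from 0 to 32 with 1 library left out (21 without TAK-931-1 and 32 without TAK-931-2, beside 28.7% and 58.1% of all genes tested). Genes at an unadjusted p under 0.05 numbered 11, and from 0 to 32 with 1 library left out (0 without Vehicle-1 or Vehicle-2, 24 without TAK-931-1, where 40.8% of all genes tested passed). With a replicate block they numbered 5, a share of 11.9% beside 16.2% of all genes tested; the deviations of Vehicle-1 and TAK-931-1 correlated at 0.0198, so that the numbers were not taken to pair the samples, and no adjusted call on the 42 genes changed. Where the number of calls moved with a library, fewer samples entered the fit and the spread within groups had another source. It came from the vehicle pair alone without a TAK-931 library, and from the TAK-931 pair alone without a vehicle library.

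Single genes near 0 changed sign. Gins2 was at 0.0375 with median-of-ratios size factors and in DESeq2, at 0.00834 by library size and at 0.0625 with at least 10 counts in every library, and Cdc6 was at 0.0134 with the latter. With 1 library left out the log2 fold change ranged from -0.85 to 0.45 for Cdc6, from -0.11 to 0.0601 for Gins2, from -0.30 to 0.0433 for Pold3, from -0.39 to 0.11 for Pole, from -0.0139 to 0.19 for Rpa2, from -0.17 to 0.50 for Lig1, from -0.61 to 0.0119 for Fen1 and from -0.51 to 0.12 for Chaf1a.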

Other observations

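The genes that break nucleotides down had no common direction. Of 13 such genes, 11 were tested, 4 were lower and 4 higher in both treated tumours (32.7% and 30.0% of all genes tested), and their median log2 fold change was -0.05, or -0.35 without TAK-931-1. Their median log2 ratio to the mean of the vehicle libraries was 0.20 for TAK-931-1 and -0.34 for TAK-931-2. At an unadjusted p under 0.05, 2 were higher and 1 was lower, beside 11.6% and 6.55% of all genes tested. At an adjusted p under 0.05, edgeR called 0 of these genes and DESeq2 called 1, Xdh, as higher (adjusted p = 0.000327), beside 9.27% of all genes tested. Xdh, the xanthine oxidoreductase that ends purine breakdown, was at 14.0 and 11.9 CPM under vehicle and 174 (TAK-931-1) and 43.6 CPM (TAK-931-2) under the inhibitor. It was higher in both treated tumours, with a log2 fold change of 3.07 ± 0.75 (SE) and of 1.75 without TAK-931-1. Samhd1, the dNTP hydrolase, was at 201 and 174 CPM under vehicle and 442 (TAK-931-1) and 268 CPM (TAK-931-2) under the inhibitor (log2 fold change 0.92 ± 0.34 SE, or 0.51 without TAK-931-1). Ada, adenosine deaminase, was lower in both, at 133, 143, 92.1 and 90.7 CPM in the same order (log2 fold change -0.59 ± 0.20 SE), and like Orc5 it was nearly equal in the 2 treated tumours. The macrophage and T cell markers were highest in the same library, TAK-931-1, as Xdh and Samhd1, and their part in these values was not tested.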
